A study of Mus musculus with 14 samples.

Results

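Collagen chains are the genes whose symbol reads Col, a number, a, and a number. All probes with a single such symbol in the platform annotation were taken, and of several probes of a gene the one brightest on average over the 14 arrays stood for it. This gave 44 genes, from 46 probes, among 19938 genes measured on the arrays. They fall into 11 fibrillar chains, 9 fibril-associated chains (FACIT), 6 beaded-filament chains, 6 basement membrane network chains, 4 transmembrane chains, 3 short-chain network chains, 2 multiplexins, 1 anchoring fibril chain (Col7a1) and 2 others (Col26a1 and Col28a1).

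The study followed primary fibroblasts of mouse embryos (MEFs) after infection with retroviruses carrying Sox2, Klf4 and Oct4 (called SKO), or with a GFP retrovirus as the control. A medium for embryonic stem cells, containing LIF, was used from day 2, either without vitamin C or with vitamin C at 50 µg/ml. Lysates came from SKO cells of days 3, 4, 5, 6, 8 and 10. GFP cells were lysed on day 3 alone and so have no later point to set beside the time course. Each of the 14 conditions was measured on 1 array, and nothing in the labels says whether cultures were independent, so the p-values do not measure the spread between cultures. They rest on how the difference between treated and untreated arrays varied from day to day, or between viruses where GFP cells were included. A shift shared by both arrays of a day does not enter that spread. Comparisons therefore set the treated and untreated arrays of 1 condition, or of 1 day, against those of another.

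A collagen molecule is a triple helix of chains, some built from copies of a single chain and others from different chains in fixed ratios. In the endoplasmic reticulum, prolyl and lysyl hydroxylases modify the chains in reactions that use vitamin C, and the secreted molecules are trimmed, assembled and crosslinked in the matrix. Fibroblasts are major producers of type I and type III collagen, and reprogramming fibroblasts into pluripotent cells is known to involve loss of the mesenchymal programme.

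Values are log2 signals as the authors deposited them, so a difference of 1 is a doubling, and probes of different genes cannot be ranked against each other. The array medians lay between 5.19 and 5.27. Pou5f1, which encodes Oct4, read 4.05 to 4.10 in the GFP arrays and 11.19 to 12.58 in the SKO arrays, Sox2 4.28 to 4.81 against 5.14 to 6.28, and Klf4 7.43 to 7.51 against 8.37 to 9.28, so the arrays matched their virus labels. Fibroblast markers (13 genes) had a mean of 9.23 and 9.54 in the GFP arrays and 8.61 to 9.02 in the SKO arrays. Chondrocyte markers (8 genes) had a mean of 4.54 to 4.80 in all arrays, under the array medians, with single genes between 3.48 and 7.22. One feature of the series touches the time course and the day 3 comparison with GFP cells. Over the genes that alternate most between days 3 to 6, the arrays of days 3, 5 and 10 scored -0.56 to -0.45. Those of days 4, 6 and 8 scored 0.08 to 0.47. These genes were chosen and signed by the same arrays, so the opposite scores within days 3 to 6 follow from the choice. Outside the choice, day 10 scored -0.45 and -0.46 (untreated, then treated), day 8 0.47 and 0.08, and the GFP arrays 0.38 and 0.47. None of the 44 genes was among the 500 genes of that score. In a contrast for this alternation, described further on, 36 of the 44 were above 0, against 10598 of 19938 genes. Their median was 0.13, against 0.02 for all genes. The GFP arrays scored on the side of days 4, 6 and 8, opposite to SKO day 3. The part of the alternation in the collagen differences was not tested, and values of days 3 and 4 are both given where it matters.

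Promoter sequences of 35 of the 44 genes, with 38 promoters, were matched by Entrez gene identifier in the RefSeq table of GRCm38.p6. Col1a1, Col2a1, Col4a3, Col5a2, Col9a3, Col12a1, Col14a1, Col22a1 and Col26a1 were not among them. The 250 bases before the listed start are shown for the fibrillar chain that differed most from the GFP cells and the pair of chains that rose most over the time course, which are described further on. They are Col5a1 (chr2:27886175-27886424, plus strand), Col15a1 (chr4:47207762-47208011, plus strand) and Col28a1 (chr6:8192618-8192867, minus strand). In all 3 the annotated gene reaches upstream of the listed start: the whole stretches of Col15a1 and Col28a1, and the last part of that of Col5a1, lie within the annotated gene. Capitals mark GC boxes (GGGCGG) and CACCC boxes (CACCC) on either strand.
Col5a1: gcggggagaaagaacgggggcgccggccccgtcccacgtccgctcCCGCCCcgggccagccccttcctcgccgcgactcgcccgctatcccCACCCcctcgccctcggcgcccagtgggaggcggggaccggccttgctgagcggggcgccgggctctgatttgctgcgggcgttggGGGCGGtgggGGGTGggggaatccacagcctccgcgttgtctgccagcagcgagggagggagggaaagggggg
Col15a1: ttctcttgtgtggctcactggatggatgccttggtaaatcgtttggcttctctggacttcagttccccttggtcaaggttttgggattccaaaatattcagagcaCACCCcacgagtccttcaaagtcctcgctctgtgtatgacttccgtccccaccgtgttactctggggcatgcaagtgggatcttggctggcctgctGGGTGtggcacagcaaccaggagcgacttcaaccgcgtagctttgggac
Col28a1: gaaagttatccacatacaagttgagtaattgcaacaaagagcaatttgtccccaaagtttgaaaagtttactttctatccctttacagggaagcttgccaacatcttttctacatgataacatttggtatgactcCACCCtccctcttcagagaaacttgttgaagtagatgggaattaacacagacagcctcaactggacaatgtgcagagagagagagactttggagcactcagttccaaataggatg
The Col5a1 stretch is 76.4% G and C, against 53.6% for Col15a1 and 40.4% for Col28a1. Col5a1 holds 2 GC boxes and 2 CACCC boxes, Col15a1 2 CACCC boxes and Col28a1 1. Both motifs were searched on both strands, and the letters of 1 do not overlap with those of the other here. A GC box was found in 22 of the 38 collagen promoters (57.9%) and in 32.7% of 32851 mouse promoters of that length. A CACCC box was found in 26 (68.4%) against 52.0%, a CCAAT box (CCAAT) in 13 (34.2%) against 33.8%, a TATA box (TATAAA) in 5 (13.2%) against 12.4%, and the octamer read by Oct4 (ATGCAAAT) in 2 (5.3%) against 1.6%. Such a match describes letters, not a site that a factor uses.

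The first comparison asked how collagen transcripts in SKO cells differed from those in GFP cells on day 3, a day after vitamin C was first given to the treated arm. Collagen genes were mostly lower in SKO cells. With limma, fitted over all genes, 12 of the 44 fell and 1 rose at an adjusted p under 0.05, which is 29.5% of them, where 17.6% of all genes passed (8.43% lower and 9.22% higher). Counting also those that did not pass, 39 of 44 differences were below 0, and their median was -0.29 against -0.04 for all genes.

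The fibrillar chains, which form the banded fibres that give tissue its tensile strength, held 6 of the 12 that fell, and their median was -0.56. Col5a1, a chain of the minor type V collagen that sets fibril diameter, read 9.78 in untreated and 9.67 in treated GFP cells, and 8.57 and 8.31 in the SKO arrays of day 3. Both SKO arrays lay more than 1 log2 unit below both GFP arrays. Col5a1 thus fell by 1.28 ± 0.17 (standard error, 2 arrays against 2), a 2.43-fold difference (limma, adjusted p = 0.000261). Col3a1, the chain of type III collagen, read 11.40 and 11.86 in GFP cells (untreated, then treated) and 10.54 and 10.51 in SKO cells. The groups did not overlap, and it was 2.15-fold lower (-1.10 ± 0.17, limma adjusted p = 0.000752). Col1a1, which supplies most of the helix of type I collagen, read 12.88 and 13.06 in GFP cells and 12.42 and 12.39 in SKO cells. That is a 1.48-fold fall (-0.57 ± 0.16, limma adjusted p = 0.0261). Its partner in the same helix, Col1a2, read 12.56 and 12.71 in GFP cells and 12.51 in both SKO arrays, a difference of -0.13 ± 0.18 that did not pass. Col5a2, the partner of Col5a1, read 10.07 and 9.93 in GFP cells and 9.60 and 9.28 in SKO cells (-0.56 ± 0.17). Col5a3, a further type V chain, read 6.72 and 6.94 against 6.20 and 5.98 (-0.74 ± 0.15), and Col27a1 fell by 0.59. The 5 fibrillar chains that did not pass, Col1a2, Col2a1, Col11a1, Col11a2 and Col24a1, all had negative differences.

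**Figure D1:**
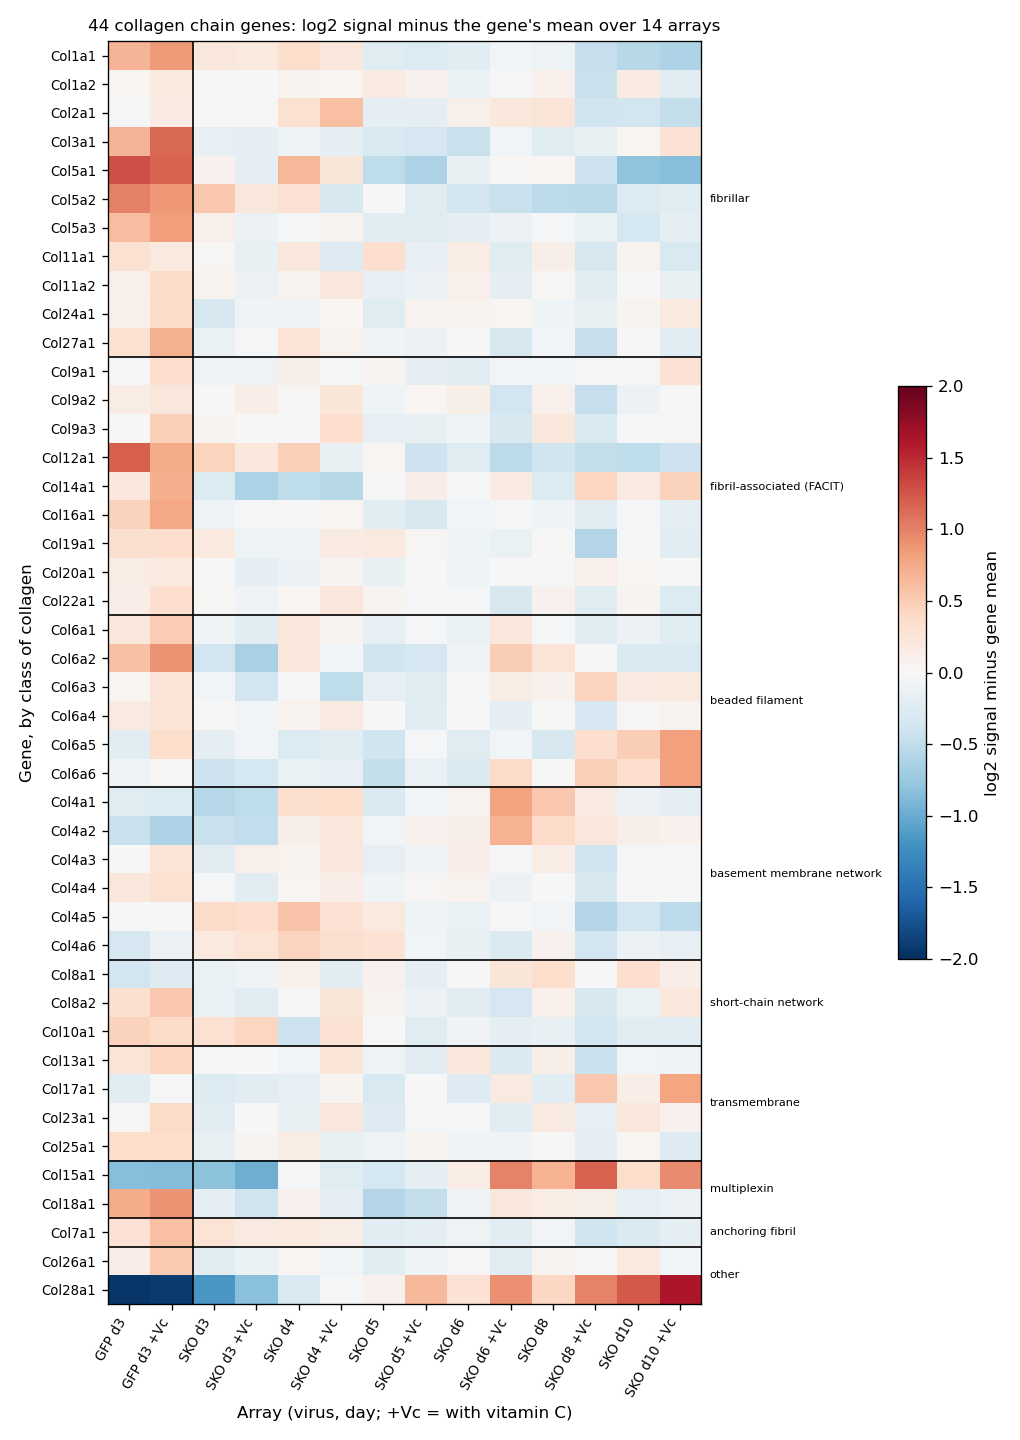
Log2 signal of each of the 44 collagen genes (rows, grouped by class) in each of the 14 arrays (columns, GFP arrays first), drawn as the difference from that gene's mean over the 14 arrays. Red is above the mean and blue below; Col1a1, Col3a1 and Col5a1 are reddest in the GFP arrays, whereas Col28a1 runs from blue in the GFP arrays to red on day 10, with a range of 3.56.

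Among the FACIT chains, which sit on the surface of fibrils, 3 of 9 fell and all 9 differences were negative. Col14a1 read 7.24 and 7.75 in GFP cells and 6.76 and 6.39 in SKO cells (-0.92 ± 0.21, 1.89-fold). Col12a1 read 10.90 and 10.45 against 10.15 and 9.92 (-0.64 ± 0.18), and Col16a1 read 7.04 and 7.34 against 6.47 and 6.55 (-0.68 ± 0.15). For each of these the SKO arrays were both under the GFP arrays.

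Of the beaded-filament chains, which make the type VI microfibrils around cells, 1 of 6 passed. Col6a2 read 9.60 and 9.91 in GFP cells and 8.64 and 8.37 in SKO cells, a 2.38-fold fall (-1.25 ± 0.21, limma adjusted p = 0.00103). Col6a1, which joins Col6a2 in the same trimer, read 10.04 and 10.33 against 9.75 and 9.59 (-0.52 ± 0.17, adjusted p = 0.0532), and Col6a3 9.32 and 9.54 against 9.23 and 8.90 (-0.37 ± 0.20, adjusted p = 0.242, both limma). Fitted as a log ratio beside all genes, Col6a1 over Col6a2 was higher in SKO cells by 0.73 ± 0.15 (limma, adjusted p = 0.00421). The ratio of Col6a1 to Col6a3 did not pass (-0.15 ± 0.20). Col18a1, the multiplexin whose tail is released as endostatin, read 7.09 and 7.25 in GFP cells and 6.16 and 5.95 in SKO cells, a 2.17-fold fall (-1.12 ± 0.17). Col8a2, a short-chain network chain, fell by 0.60.

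Against this direction, Col28a1 rose. It encodes a chain with von Willebrand factor A domains that is known from the basement membranes of peripheral nerve. Its signal was 4.83 and 4.86 in GFP cells and 5.61 and 5.94 in SKO cells, a 1.91-fold rise (0.93 ± 0.17, limma adjusted p = 0.00192). The basement membrane chains did not pass in either direction: Col4a1 read 8.62 and 8.58 in GFP cells and 8.29 and 8.35 in SKO cells, and Col4a2 8.52 and 8.35 against 8.52 and 8.47. The 31 genes that did not pass had differences between -0.52 and 0.46.

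The lower signal held on later days for many of these genes. In 18 of the 44, all 12 SKO arrays lay below both GFP arrays, a pattern met by 7.47% of all genes. They include Col1a1, Col3a1, Col5a1, Col5a2, Col5a3, Col6a1, Col6a2, Col12a1, Col16a1, Col18a1 and Col27a1. The reverse, all 12 SKO arrays above both GFP arrays, was seen for Col8a1 and Col28a1, and for 6.92% of all genes. Set against SKO day 4 in place of day 3, 8 fell and 3 rose (25.0%, where 7.78% of all genes passed, 4.88% higher and 2.9% lower). Col3a1 (-1.06 ± 0.17), Col5a1 (-0.78 ± 0.17) and Col18a1 (-0.87 ± 0.17) were again lower, with Col4a2 (0.70 ± 0.18), Col4a6 (0.61 ± 0.17) and Col28a1 (1.76 ± 0.17) higher. The 4 genes that no longer passed were Col6a2, at -0.66 ± 0.21 (1.58-fold, limma adjusted p = 0.0722) against -1.25 on day 3, Col1a1 (-0.49 ± 0.16), Col27a1 (-0.35 ± 0.19) and Col8a2 (-0.33 ± 0.19). The GFP arrays are the same in both comparisons.

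Of the fibroblast markers, 7 of 13 fell in the same comparison on day 3 and none rose, with a mean of 9.23 and 9.54 in the GFP arrays and 8.67 and 8.68 in the SKO arrays. The means of the smooth muscle markers (9.35 and 9.61 against 8.73 and 8.96, 1 of 5 genes lower), the osteoblast markers (4.44 and 4.99 against 4.10 and 4.14, 1 of 5) and the macrophage markers (4.87 and 5.17 against 4.58 and 4.72, 1 of 9) were also lower in the SKO arrays. The part of these lists in the collagen differences was not tested, and in bulk RNA fewer cells of a type and less RNA per cell cannot be told apart. With any 1 array of this comparison left out, its side holds a single array. Fewer collagen genes and fewer of all genes then passed. Col3a1 then differed by -1.29 to -0.92, Col5a1 by -1.33 to -1.23 and Col6a2 by -1.42 to -1.08. Col18a1 differed by -1.25 to -0.98 and Col28a1 by 0.72 to 1.15, while Col27a1 ranged from -0.89 to -0.30.

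**Figure D2:**
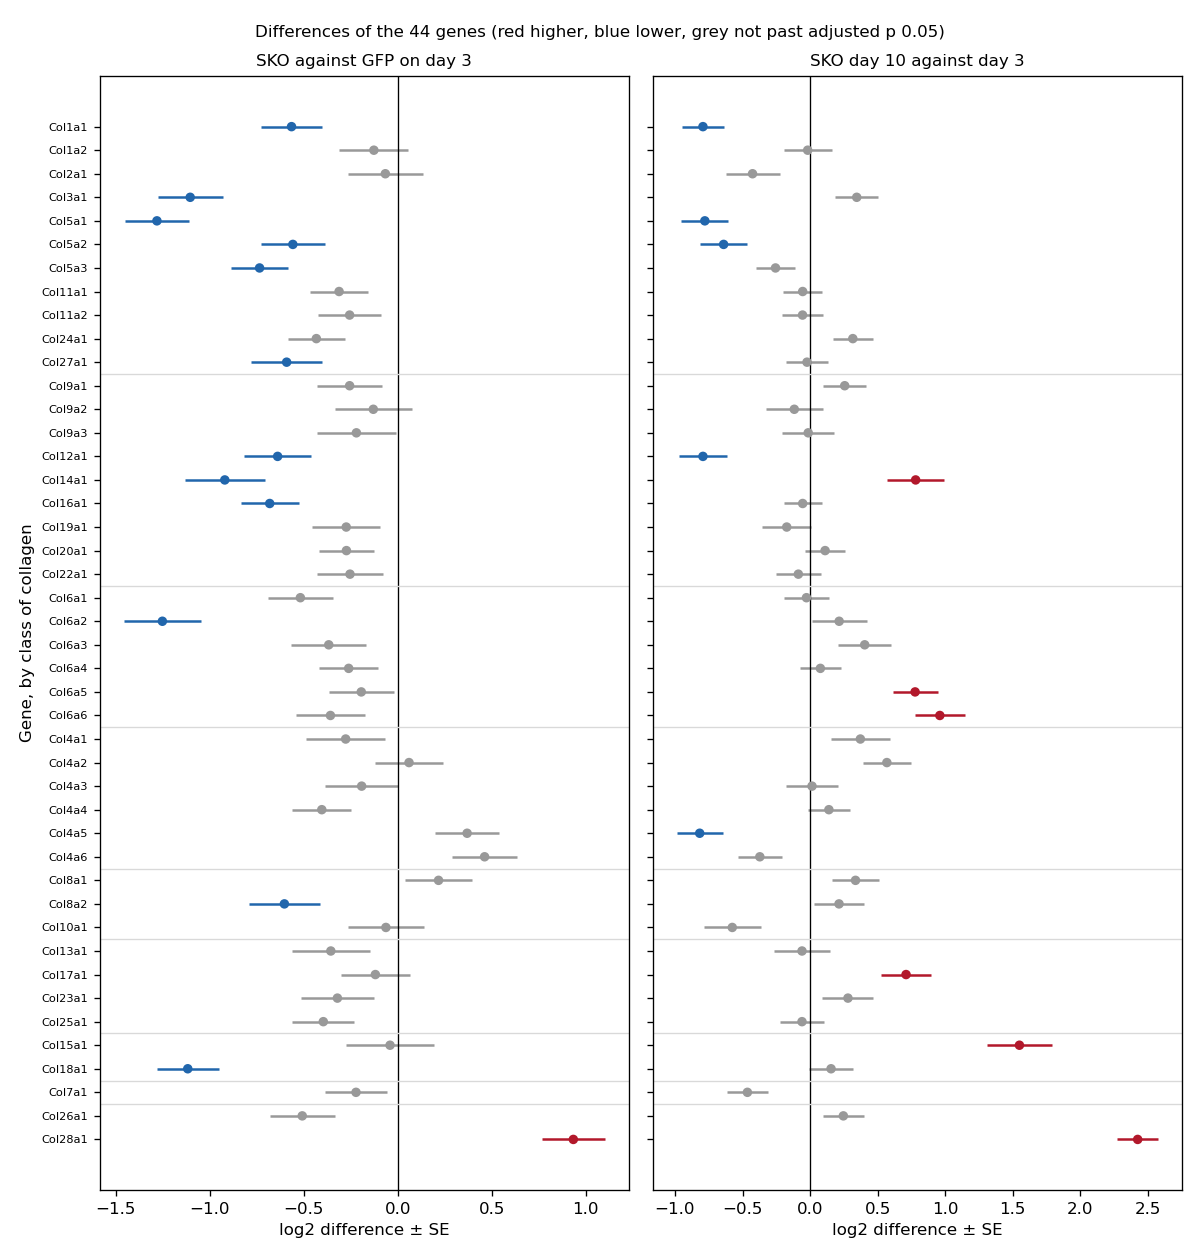
Log2 difference of each collagen gene (rows, grouped by class) between SKO and GFP cells on day 3 (left) and between days 10 and 3 of SKO cells (right). Points are fitted differences and bars standard errors, from 2 arrays against 2; red and blue mark genes higher or lower at an adjusted p under 0.05 and grey the rest. On the left 12 genes are blue and 1 is red; on the right 5 are blue and 6 red.

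The second comparison followed SKO cells from day 3 to day 10. Collagen genes moved in both directions: 6 rose and 5 fell, together 25.0% of the 44, where 12.2% of all genes passed (6.55% higher and 5.64% lower). The median difference of the 44 was 0.00, against -0.02 for all genes. The fibrillar chains held 3 of the 5 that fell and none that rose.

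Col1a1 declined. In day order (days 3, 4, 5, 6, 8 and 10) it read 12.42, 12.54, 11.96, 11.98, 12.10 and 11.64 without vitamin C. With vitamin C the series was 12.39, 12.42, 11.93, 12.14, 11.74 and 11.58. Both day 10 arrays were below all the others, and the fall from day 3 was 1.73-fold (-0.79 ± 0.15, limma adjusted p = 0.00562).

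Col1a2 did not follow it. Without vitamin C it read 12.51, 12.59, 12.69, 12.39, 12.62 and 12.69 in day order. With vitamin C it read 12.51, 12.57, 12.62, 12.51, 12.07 and 12.30. From day 3 to day 10 it differed by -0.02 ± 0.18, and the untreated day 10 array was as high as any other SKO array. Fitted as a log ratio beside all genes, Col1a1 over Col1a2 fell by 0.78 ± 0.15 (limma, adjusted p = 0.00566 over 19944 rows). The same ratio in SKO against GFP cells was lower by -0.44 ± 0.15 and did not pass (limma, adjusted p = 0.0620).

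The type V chains Col5a1 and Col5a2 also fell. Col5a1 read 8.57, 9.16, 7.98, 8.34, 8.52 and 7.69 without vitamin C and 8.31, 8.73, 7.86, 8.51, 8.07 and 7.64 with it. Its values were lower on days 3 and 5 than on day 4 in both arms, and lowest on day 10, a 1.72-fold fall from day 3 (-0.78 ± 0.17, limma adjusted p = 0.0118). Col5a2 read 9.60, 9.35, 9.07, 8.69, 8.53 and 8.79 without vitamin C and 9.28, 8.74, 8.82, 8.62, 8.52 and 8.81 with it. It was lowest on day 8 in both arms and 1.56-fold lower on day 10 than on day 3 (-0.64 ± 0.17). The ratio of Col5a1 to Col5a2 differed between days (limma F test, adjusted p = 0.00301) and was lower in SKO than in GFP cells on day 3 (-0.72 ± 0.17, limma adjusted p = 0.0110).

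Col3a1 did not fall further after its lower level on day 3. Without vitamin C it read 10.54, 10.62, 10.40, 10.26, 10.47 and 10.74. With vitamin C it read 10.51, 10.53, 10.37, 10.66, 10.56 and 11.00. All of these are below the GFP arrays, and the largest value of each arm came on day 10.

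The 2 other genes that fell were Col12a1 and Col4a5. Col12a1, which links fibrils to their surroundings, read 10.15, 10.18, 9.74, 9.46, 9.30 and 9.20 without vitamin C and 9.92, 9.55, 9.29, 9.18, 9.22 and 9.29 with it. Without vitamin C each day from day 5 on was lower than the day before, while the treated arrays of days 5 to 10 lay between 9.18 and 9.29. Day 10 was 1.73-fold below day 3 (-0.79 ± 0.18). Col4a5, a basement membrane chain, read 7.00, 7.18, 6.82, 6.48, 6.55 and 6.23 without vitamin C and 6.96, 6.90, 6.52, 6.62, 6.03 and 6.09 with it. It fell 1.76-fold (-0.82 ± 0.17, limma adjusted p = 0.00808).

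**Figure D3:**
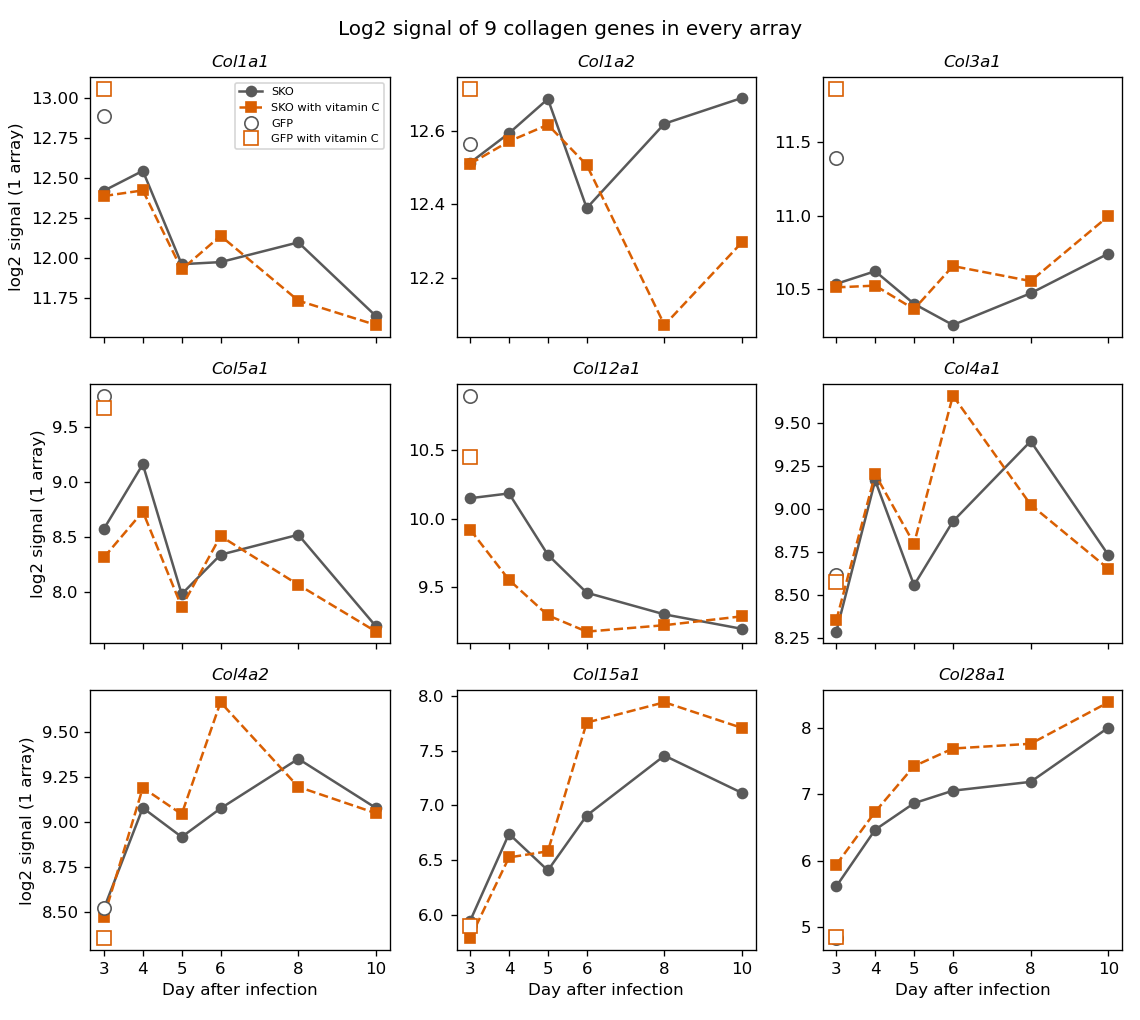
Log2 signal (vertical axes, each panel with its own scale) of 9 collagen genes on each sampling day (horizontal axis). Filled points are SKO arrays and open points GFP arrays; circles are without and squares with vitamin C, 1 array per point. Col1a1, Col5a1 and Col12a1 end lower than they began and Col28a1 and Col15a1 higher, while untreated Col1a2 reads 12.51 on day 3 and 12.69 on day 10.

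Among the genes that rose, Col28a1 changed most. Without vitamin C it read 5.61, 6.47, 6.87, 7.06, 7.19 and 8.01, and with vitamin C 5.94, 6.74, 7.43, 7.69, 7.76 and 8.39. It climbed from each sampling day to the next in both arms, and day 10 was 5.37-fold above day 3 (2.42 ± 0.15, limma adjusted p = 5.48e-06). Its range over the 14 arrays, 3.56, was the largest of the 44 and ranked 98 among all genes. It was the sole collagen gene to pass between days 3 and 5 (1.37 ± 0.15, 2.59-fold), where 1.39% of all genes passed (1.11% higher).

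Col15a1, the multiplexin related to Col18a1, read 5.94, 6.74, 6.40, 6.91, 7.46 and 7.11 without vitamin C and 5.78, 6.52, 6.58, 7.76, 7.95 and 7.71 with it. In both arms its peak was on day 8, and day 10 was 2.93-fold above day 3 (1.55 ± 0.24, limma adjusted p = 0.00132). The GFP arrays read 5.91 and 5.90, at the level of SKO day 3. Col18a1 itself read 6.16, 6.43, 5.76, 6.27, 6.49 and 6.19 without vitamin C and 5.95, 6.17, 5.87, 6.58, 6.47 and 6.23 with it, and did not pass between days 10 and 3.

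Of the beaded-filament chains, Col6a5 and Col6a6 rose, which are longer chains related to Col6a3. Col6a6 read 5.74, 6.03, 5.69, 5.87, 6.15 and 6.49 without vitamin C and 5.81, 6.00, 6.03, 6.55, 6.64 and 6.98 with it (0.96 ± 0.18, 1.95-fold). Col6a5 read 5.30, 5.21, 5.09, 5.24, 5.15 and 5.97 without vitamin C and 5.42, 5.25, 5.46, 5.42, 5.81 and 6.30 with it (0.78 ± 0.17, 1.71-fold). In both genes the day 10 array was the highest of its arm. Each has a second, dimmer probe: that of Col6a5 went from 4.36 to 5.86 between days 3 and 10 without vitamin C and from 5.08 to 6.81 with it, and that of Col6a6 from 3.80 to 5.50 and from 4.17 to 5.80, larger differences than those of the probes used.

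The main type VI chains did not pass. Col6a1 read 9.75, 10.02, 9.65, 9.69, 9.80 and 9.70 without vitamin C and 9.59, 9.89, 9.78, 10.02, 9.61 and 9.58 with it. Col6a2 read 8.64, 9.24, 8.61, 8.94, 9.29 and 8.73 without vitamin C and 8.37, 8.95, 8.68, 9.51, 9.02 and 8.71 with it. Its arrays of days 4, 6 and 8 were all above those of days 3, 5 and 10, the alternation described above. The ratio of Col6a1 to Col6a2 differed between days (limma F test, adjusted p = 0.0490). Col6a3 read 9.23, 9.29, 9.12, 9.26, 9.36 and 9.47 without vitamin C and 8.90, 8.78, 9.04, 9.42, 9.72 and 9.47 with it.

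Col14a1 and Col17a1 also rose between days 3 and 10. Col14a1 read 6.76, 6.53, 6.99, 6.99, 6.76 and 7.22 without vitamin C and 6.39, 6.48, 7.16, 7.20, 7.47 and 7.50 with it (0.78 ± 0.21, 1.72-fold). On day 10 it read 7.22 without and 7.50 with vitamin C, where the GFP arrays of day 3 read 7.24 without and 7.75 with it. Col17a1, the transmembrane chain of epithelial hemidesmosomes, read 4.99, 5.09, 4.95, 5.00, 5.04 and 5.39 without vitamin C and 5.02, 5.31, 5.24, 5.44, 5.79 and 6.04 with it (0.71 ± 0.18, 1.64-fold). Its untreated signal stayed near the array median of about 5.2, so its fold may be understated, which was not tested.

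The basement membrane pair Col4a1 and Col4a2 moved between days without a difference between days 10 and 3 that passed. These chains join in 1 helix, and their genes lie head to head: in the RefSeq table of GRCm38.p6 the start of Col4a2 on the plus strand and that of Col4a1 on the minus strand are the ends of a stretch of 22 bases, chr8:11312805-11312826, shown here on the plus strand because it holds the listed start of each gene. Both genes are transcribed through this stretch from their listed starts, so they overlap there and no gap lies between the starts. The annotation of Col4a1 reaches beyond it on the upstream side.
Col4a1 and Col4a2 starts: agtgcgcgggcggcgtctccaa
Col4a1 read 8.29, 9.17, 8.56, 8.93, 9.39 and 8.73 without vitamin C and 8.35, 9.20, 8.80, 9.66, 9.02 and 8.65 with it. Col4a2 read 8.52, 9.08, 8.92, 9.07, 9.35 and 9.08 without vitamin C and 8.47, 9.19, 9.04, 9.67, 9.20 and 9.05 with it. The highest array was day 8 without vitamin C and day 6 with it for both genes, and the lowest SKO array was day 3. Both passed the test of any difference between days (limma F test, adjusted p = 0.0286 for Col4a1 and 0.0380 for Col4a2), as did 11 of the 44 in all, where 18.9% of all genes did. The ratio of Col4a1 to Col4a2 passed neither between days (limma F test, adjusted p = 0.256) nor between viruses (limma, adjusted p = 0.149). Another head-to-head pair, Col4a5 and Col4a6, has 1342 bases between its starts on chromosome X. Their ratio between days 10 and 3 was -0.45 ± 0.15 (limma, adjusted p = 0.0801).

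Shorter steps gave fewer calls. Between days 5 and 10, Col28a1 (1.05 ± 0.15), Col6a6 (0.88 ± 0.18) and Col6a5 (0.86 ± 0.17) rose and none fell (6.82%, where 1.73% of all genes passed, 1.21% higher and 0.517% lower). Between days 4 and 8, Col15a1 (1.07 ± 0.24) and Col28a1 (0.87 ± 0.15) rose and Col4a5 fell (-0.75 ± 0.17), where 2.34% of all genes passed (1.85% higher and 0.492% lower). From day 4 in place of day 3, day 10 gave 5 higher and 5 lower (22.7%, with 16% of all genes, 7.85% higher and 8.11% lower). Col5a2 (-0.24 ± 0.17) and Col17a1 (0.51 ± 0.18) no longer passed, and the rise of Col15a1 was 1.72-fold (0.78 ± 0.24). Col5a1 (-1.28 ± 0.17) and Col1a1 (-0.87 ± 0.15) were among the lower, with Col2a1 (-0.87 ± 0.20), whose product is the main collagen of cartilage. A contrast for the alternation of days 3 to 6 averaged day 4 minus the mean of days 3 and 5, and the mean of days 4 and 6 minus day 5. It thus weighs days 4 and 5 most. In it Col5a1 (0.76 ± 0.14), Col4a1 (0.62 ± 0.17) and Col18a1 (0.46 ± 0.13) were higher and none lower (6.82%, where 12.5% of all genes passed). Counting also those that did not pass, 36 of the 44 were above 0, with a median of 0.13 against 0.02 for all genes.

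Other cell-type markers moved along the same days. Smooth muscle markers fell in 5 of 5 genes between days 3 and 10, from a mean of 8.73 to 8.96 on day 3 to 6.57 to 7.23 on day 10. Macrophage markers rose in 7 of 9 genes, from a mean of 4.44 to 5.39 over days 3 to 8 to 5.99 and 6.16 on day 10, and epithelial markers rose in 4 of 8 and fell in 1, from 4.79 to 5.51 to 5.62 and 5.90. Fibroblast markers rose in 3 of 13 and fell in 1, and pluripotency markers rose in 3 of 8. The part of these in the collagen differences was not tested. With any 1 array of day 3 or day 10 left out, that day holds a single array. Fewer collagen genes and fewer of all genes then passed. Over all alternative settings, the difference of Col28a1 lay between 1.60 and 2.50 and that of Col15a1 between 0.78 and 1.82. That of Col14a1 lay between 0.47 and 1.10 and that of Col5a2 between -0.78 and -0.24.

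Over the 14 arrays the profile of Col1a1 was most like those of Nt5dc2 (Pearson r = 0.98), Praf2 (0.976), Flnc (0.974), Ak1 (0.972) and Ifngr2 (0.966). Of the other collagen genes, Col5a1 (0.947) and Col7a1 (0.929) were nearest and Col1a2 had an r of 0.433, while Col28a1 was opposite (-0.932). These values describe 14 arrays that share the virus and day structure.

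The third comparison concerned vitamin C, the substance the study added, in SKO cells. Across the 6 days 1 collagen gene of 44 passed (2.27%, where 0.933% of all genes did), and 40 of the 44 mean differences were under 0.3 in size. Of these means 15 were above 0 and 29 below, with a median of -0.06 against -0.01 for all genes.

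Col28a1 was the gene that passed. Its treated array was above its untreated one on each day, by 0.33, 0.27, 0.56, 0.64, 0.58 and 0.38 in day order, and by 0.03 in GFP cells. The mean of 0.46 ± 0.09 is a 1.37-fold rise (limma, adjusted p = 0.0303). The call was lost without day 5, 6, 8 or 10 (limma adjusted p between 0.0761 and 0.126) and kept without day 3 or day 4 (0.0418 and 0.0480). It was also lost with the day as a straight trend, with a minimum of 1.2-fold and over 3 of the 6 days (days 3, 5 and 10, or 4, 6 and 8), while the mean stayed between 0.42 and 0.50 in all alternatives.

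Col11a1, a minor fibrillar chain that nucleates cartilage fibrils, was lower with vitamin C on each day, by -0.16, -0.48, -0.51, -0.40, -0.44 and -0.37. Without vitamin C it read 8.62, 8.82, 8.94, 8.75, 8.72 and 8.67, and with vitamin C 8.46, 8.34, 8.43, 8.36, 8.28 and 8.30, so no treated array reached an untreated one. Its mean of -0.39 ± 0.08 did not pass (limma, adjusted p = 0.0544), and it passed without day 3. No other gene was lower on all 6 days, where 3.20% of all genes were.

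Col6a5, Col17a1 and Col28a1 were higher on all 6 days, where 3.90% of all genes were. For Col17a1 the differences were 0.03, 0.22, 0.29, 0.44, 0.75 and 0.65 in day order, with a mean of 0.40 ± 0.11 (limma, adjusted p = 0.123). Those of Col6a5 were 0.13, 0.05, 0.37, 0.18, 0.66 and 0.33, a mean of 0.28 ± 0.10 (limma, adjusted p = 0.253). Neither passed on these probes. The second, dimmer Col6a5 probe was also higher on all 6 days, by 0.72, 0.59, 0.46, 1.53, 1.26 and 0.95, and the mean of both Col6a5 probes passed, at 0.60 (limma, adjusted p = 0.0225). The second Col6a6 probe differed by 0.08 to 0.93. No collagen gene passed for a slope of the difference per day (0 of 44, 3 of them at an unadjusted p under 0.05; 0.0351% of all genes in limma, 0.01% higher and 0.0251% lower).

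The main collagens of fibroblasts showed mean differences near 0: -0.07 ± 0.09 for Col1a1, -0.15 ± 0.10 for Col1a2 and 0.10 ± 0.09 for Col3a1. The 2 lowest arrays of Col1a2 were the treated ones of days 8 and 10, where the differences were -0.55 and -0.39. The differences of Col12a1 were between -0.63 and -0.08 on days 3 to 8 and 0.09 on day 10, a mean of -0.26 ± 0.10 that did not pass.

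**Figure D4:**
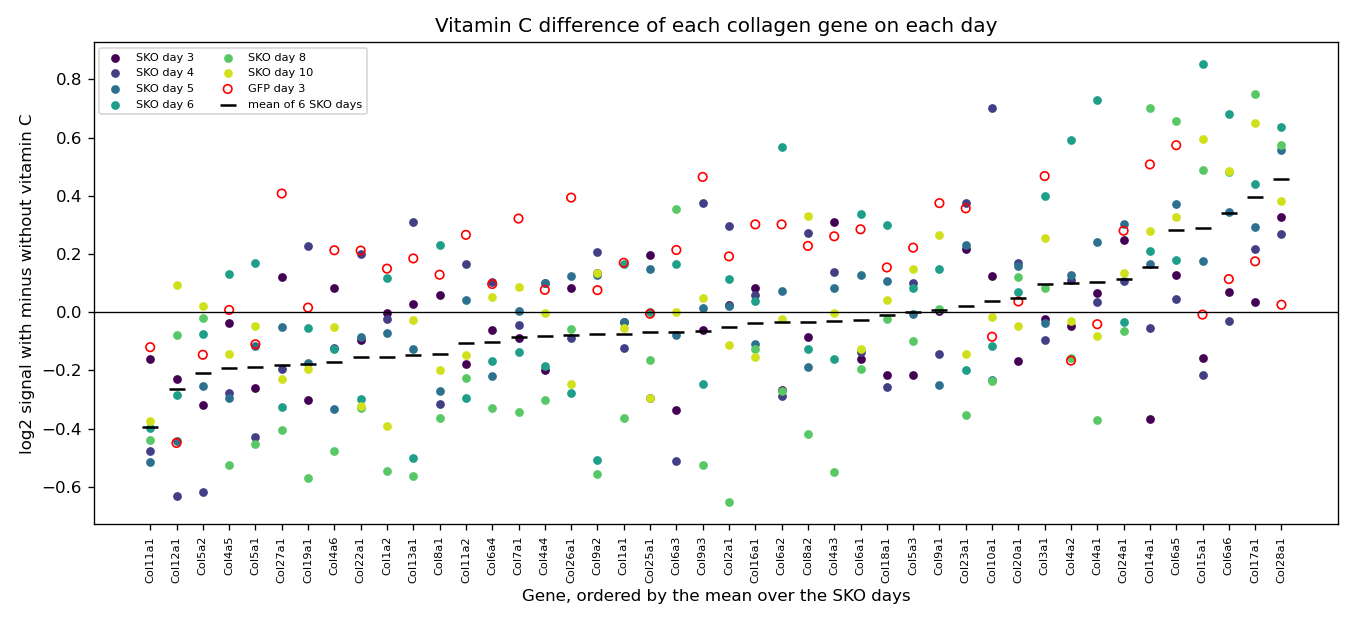
Log2 signal with minus without vitamin C (vertical axis) for each of the 44 collagen genes (horizontal axis, ordered by mean). Filled points are the 6 SKO days, open red points the GFP pair and dashes the mean of the SKO days. Col11a1, at the left, lies below 0 on all 6 days and Col28a1, at the right, above; for most other genes the days fall on both sides of 0.

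In GFP cells, where 1 treated and 1 untreated array allow no test, 35 of the 44 genes were higher with vitamin C and 9 lower (79.5% higher, against 52.0% of all genes), with a median of 0.18 against 0.02. Col3a1 was higher by 0.47 and Col1a1 by 0.17. The mean of the fibroblast markers was also higher in the treated GFP array, 9.54 against 9.23, as were those of osteoblast (4.99 against 4.44), macrophage (5.17 against 4.87) and endothelial markers (4.69 against 4.43), while that of smooth muscle markers was lower (9.35 against 9.61). Within these lists single genes went either way. Of the fibroblast markers, Lum (10.06 against 8.15) and S100a4 (7.24 against 5.67) were higher by most. Thy1 (9.81 against 10.25), Pdgfrb, Fbln2, Twist1 and Prrx1 were lower. Of the osteoblast markers, Ibsp (5.27 against 3.57) was higher by most and Dmp1 (3.89 against 4.09) was lower. The part of these lists in the collagen values was not tested. The interaction of vitamin C with the virus passed for no gene of the 44 and none of the 19938 in limma (1 and 1377 at an unadjusted p under 0.05).

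More genes that make and process collagen fell than rose against GFP cells: of 31 measured from a list of 34, 12 fell and 3 rose on day 3. Creb3l1, a transcription factor that activates collagen genes in bone-forming cells, fell 4.09-fold (-2.03 ± 0.21), and the lysyl oxidase Loxl1 3.14-fold (-1.65 ± 0.17). Pcolce2, an enhancer of propeptide cleavage, rose 8.29-fold (3.05 ± 0.17), and Tll1, a protease that trims propeptides, 5.06-fold (2.34 ± 0.16). Between days 3 and 10, 12 fell and 1 rose. Tll1 (2.69-fold), Creb3l1 (2.31-fold), the prolyl hydroxylase subunit P4ha2 (2.22-fold) and the crosslinking enzyme Lox (1.99-fold) fell most, and the prolyl 3-hydroxylase gene P3h2 rose 1.62-fold. With vitamin C 4 fell and none rose: P4ha1 (-0.90 ± 0.11), P4ha2 (-0.59 ± 0.10), Adamts3 (-0.53 ± 0.10) and Tll1 (-0.46 ± 0.09).

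Of 9 collagen receptors measured from 10 listed, 4 fell and 1 rose against GFP cells. Itga11, the integrin subunit that binds fibrillar collagen on fibroblasts, fell 5.21-fold (-2.38 ± 0.35), and Mrc2, which takes up collagen fragments, 2.43-fold (-1.28 ± 0.16). Itga1, the subunit that binds type IV collagen, rose 2.86-fold from day 3 to day 10 (1.52 ± 0.16), while Itgb1, the partner of all collagen-binding integrins, fell by 0.53. None of the 9 passed for vitamin C.

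Of 13 genes for collagen breakdown and its inhibitors measured from 14 listed, 4 fell and 1 rose against GFP cells. The collagenase gene Mmp13 fell 4.57-fold (-2.19 ± 0.25), the gelatinase gene Mmp2 2.04-fold and the membrane protease gene Mmp14 1.87-fold, whereas the inhibitor gene Timp1 rose 1.84-fold. From day 3 to day 10 Timp1 (1.92-fold) and Mmp16 (1.87-fold) fell and Mmp2 rose 1.45-fold. None of the 13 passed for vitamin C.

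The median range of the collagen genes over the 14 arrays was 0.93, against 0.84 for all genes. Of the 44, 23 had a range under 1, a limit that the median of all genes also lies under. The smallest was that of Col20a1 (0.38), and some of the 23, such as Col1a2 and Col8a2, are described above. Only Col19a1 had a mean under 4.54, the limit below which a gene was counted as weak, but many chains of cartilage, nerve or epithelium, such as Col9a1, Col9a2, Col9a3, Col20a1, Col22a1 and Col25a1, read between 4.80 and 6.30 in every array, close to the array medians.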

How the data were processed

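RNA of 14 samples (100 ng each, per the labels' protocols) was hybridised to Affymetrix whole-transcript arrays. The authors deposited 1 log2 value per probe and array, made with RMA and Partek per the submitters' processing notes. No version of either is named in the sources used here. The log2 scale was read from the values (0.724 to 14.1). Of 28853 probes, 21789 had 1 symbol, 1621 several and 5443 none listed, and 19856 of 19938 genes were found in RefSeq (GRCm38.p6). Of these genes 999 had several probes.

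No normalization was added. Each test was made with lmFit and eBayes of limma 3.58.1 (R 4.3.3), adjusted over all genes by Benjamini-Hochberg, and called under 0.05. A fit of the 12 SKO arrays with terms for day (6 levels) and vitamin C gave the vitamin C and day contrasts (5 residual degrees of freedom) and pairs the arms by day. SKO against GFP used 14 arrays (6 residual degrees of freedom). Log ratios of 6 chain pairs, chosen after the data were seen, were fitted as added rows. Scripts were tested on simulated data. Figures were drawn with Python 3.11.15 and matplotlib 3.10.9.

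The collagen genes and the lists were chosen with earlier results of these data known. Values in every array are given for the main fibroblast collagens and, per comparison, for up to 6 higher and 6 lower genes of largest difference past the threshold with 1 direction in both arms or on all days. Alternatives were other scaling, a filter on dim probes, the mean of a gene's probes, variance models, array weights, a minimum of 1.2-fold and leaving out arrays or days.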

Additional observations from a re-analysis of the deposited data

How the results depend on the processing

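No result changed direction. Over 37 collagen gene results and 482 alternatives, 364 kept their side of the threshold, 112 lost the call and 6 gained it, the last for vitamin C, 5 for Col11a1 and 1 for Col6a5 (mean of a gene's probes). Col3a1, Col5a1, Col18a1 and Col28a1 for SKO against GFP, Col15a1 and Col28a1 for day 10 against day 3, and Col28a1 for day 5 against day 3 kept their calls under each alternative run for them.

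For vitamin C, 2 genes in place of 1 passed under median centring, without the dimmest genes, with the mean of a gene's probes, with an intensity trend or with array weights, and 0 with a minimum of 1.2-fold, a straight trend over days, days 3, 5 and 10 only, or days 4, 6 and 8 only. Of all genes 186 passed as reported, 364 with an intensity trend, 10 with a minimum of 1.2-fold and 113 with a straight trend. Leaving out a day gave 0 to 2 collagen genes, and 23 to 263 of all genes. For SKO against GFP a minimum of 1.2-fold left 5 of 13 collagen genes, and 1380 of the 3519 called among all genes. For day 10 against day 3 it left 4 of 11, and 1058 of 2430 among all genes. For day 10 against day 5 it left 1 of 3, and 66 of 345 among all genes. In these comparisons, leaving out an array gave fewer calls among the collagen genes and among all genes. For day 8 against day 4, 3 became 5 without the dimmest genes, 6 with an intensity trend, 1 with array weights and 0 with a minimum of 1.2-fold. Among all genes 467 became 646, 677, 173 and 125 in the same order. Leaving out an array moved both counts, up without the untreated array of day 8 and down otherwise. For the contrast for the alternation of days 3 to 6, 3 became 5 without the dimmest genes, 6 with an intensity trend, 6 with array weights and 0 with a minimum of 1.2-fold. Among all genes 2486 became 3413, 3342, 4017 and 232 in the same order. The cause of these changes was not tested.

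Median centring moved the share of higher calls among all genes between days 3 and 10 from 53.7% to 42.1% (1124 higher, 1545 lower), with a shift of all genes' median to -0.09; the collagen split was then 6 higher and 6 lower, Col7a1 being added. The fits by day already pair the treated and untreated arrays, and no replicate numbers exist beyond this. Differences of genes near the array medians may be compressed, which was not tested.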

Other observations

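The profile of Col28a1, singled out after its values were seen, was over the 14 arrays most like those of Cryz (Pearson r = 0.986), Acsbg1 (0.984), Glb1l2, Irak3 and Cnr1 (0.982 each). Among the collagen genes Col15a1 (0.86), Col4a2 (0.795) and Col8a1 (0.712) came nearest, and Col12a1 (-0.934), Col1a1 (-0.932) and Col7a1 (-0.905) were the most opposite. Col8a1, a short-chain network chain, read 9.17 and 9.30 in GFP cells (untreated, then treated). In SKO cells it read 9.42, 9.65, 9.64, 9.56, 9.91 and 9.88 in day order without vitamin C and 9.48, 9.34, 9.37, 9.80, 9.55 and 9.69 with it. Its differences passed in no comparison.

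Vitamin C differences of the collagen genes were unlike on day 8. On that day 10 of the 44 were higher with vitamin C and their median was -0.25, against -0.03 for all genes. On the other days 19 to 24 were higher, with medians between -0.04 and 0.05. On day 8 the untreated array had a score of 0.47 on the alternation between days and the treated array 0.08, and the fibroblast markers had means of 8.90 and 9.02. The part of these in the day 8 values was not tested.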
